A study of Mus musculus with 4 samples.

Results

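The genes of the retinoblastoma proteins and of the cyclins and kinases that act on them in G1 were described across 4 RNA sequencing libraries of mouse hematopoietic stem cells (HSCs). The 10 members were taken by gene name for their place in this pathway from 23450 listed genes. They are the pocket protein genes Rb1, Rbl1 and Rbl2, the D cyclin genes Ccnd1, Ccnd2 and Ccnd3, the kinase genes Cdk4 and Cdk6, and the E cyclin genes Ccne1 and Ccne2. All 10 were found, and all 10 passed the filter of at least 1 CPM in at least 2 libraries that left 12569 genes for testing. CPM is the count of a gene's reads scaled to a fixed library total, the usual counts-per-million unit.

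The cells were sorted from mouse bone marrow, 2000 cells per library. Long-term HSCs (LT-HSC, 2 libraries) were CD48-, CD150+, CD34- and CD9high, and short-term HSCs (ST-HSC, 2 libraries) were CD48-, CD150+ and CD9low, with no CD34 gate given. No genotype, strain, age or treatment is given for either group in the sources used here. Whether the 2 libraries of a group came from different animals is not stated, so p-values speak only of the spread among these libraries, and that spread may be technical.

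The pocket proteins bind E2F transcription factors and hold back the genes that E2F drives, which serve DNA replication. In G1, D cyclins with CDK4 or CDK6 phosphorylate the pocket proteins, and E cyclins with CDK2 complete this step, which releases E2F and commits a cell to S phase. The Rbl2 protein, p130, is the pocket protein typical of quiescent cells, whereas Rbl1, which encodes p107, is itself an E2F target and is typical of cycling cells. Most HSCs are quiescent, and CDK6 is known for its part in the exit of HSCs from that state.

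The promoters shown are those of the pocket protein genes Rbl1 and Rbl2, whose levels lay on opposite sides between the groups. Those of Cdk6 and Ccne1, which lay on the side of Rbl1, are shown beside them. Each run holds 250 bases before and 50 bases after the start of the gene, on the strand of the gene, from RefSeq on GRCm38.p6, a build other than that of the deposited files. Members were matched by symbol only, and 6 of the 10 genes had a sequence in the RefSeq table. Capitals mark matches on either strand to the E2F motifs TTTCCCGC, TTTCGCGC, TTTGCCGC and TTTGGCGC, or to TTTGAA, the cell cycle genes homology region.
Rbl1, chr2:157204485-157204784, minus strand: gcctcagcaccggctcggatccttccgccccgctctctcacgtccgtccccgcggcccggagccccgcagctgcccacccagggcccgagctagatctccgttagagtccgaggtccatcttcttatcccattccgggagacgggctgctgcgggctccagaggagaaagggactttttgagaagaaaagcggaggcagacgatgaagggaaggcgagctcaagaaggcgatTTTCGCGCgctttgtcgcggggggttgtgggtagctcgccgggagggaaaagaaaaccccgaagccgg
Rbl2, chr8:91069807-91070106, plus strand: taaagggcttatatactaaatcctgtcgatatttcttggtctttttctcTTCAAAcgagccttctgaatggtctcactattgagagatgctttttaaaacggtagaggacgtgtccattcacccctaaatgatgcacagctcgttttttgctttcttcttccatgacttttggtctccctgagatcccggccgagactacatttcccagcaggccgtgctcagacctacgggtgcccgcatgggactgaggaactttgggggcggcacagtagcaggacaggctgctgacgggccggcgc
Cdk6, chr5:3343643-3343942, plus strand: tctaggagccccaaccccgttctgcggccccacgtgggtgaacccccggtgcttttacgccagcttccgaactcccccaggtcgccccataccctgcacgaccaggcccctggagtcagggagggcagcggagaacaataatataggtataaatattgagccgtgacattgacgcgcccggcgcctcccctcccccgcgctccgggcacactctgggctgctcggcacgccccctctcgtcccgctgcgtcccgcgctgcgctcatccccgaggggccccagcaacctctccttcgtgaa
Ccne1, chr7:38107441-38107740, minus strand: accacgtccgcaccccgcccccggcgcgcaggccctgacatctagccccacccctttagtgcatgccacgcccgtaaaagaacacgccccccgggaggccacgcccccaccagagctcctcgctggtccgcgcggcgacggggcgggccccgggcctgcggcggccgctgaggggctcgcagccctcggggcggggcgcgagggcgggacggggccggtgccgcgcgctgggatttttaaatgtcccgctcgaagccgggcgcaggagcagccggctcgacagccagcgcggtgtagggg

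Of the 6 genes with a sequence, Rbl1 alone held an E2F motif, TTTCGCGC at bases 233 to 240 of the run. One of the 4 E2F motifs was in 2.26% of all 32851 promoter windows of this length. Rbl2 alone held TTTGAA, read as TTCAAA at bases 50 to 55, a motif found in 17.9% of the windows. The matches did not overlap. Cdk4 and both Ccnd3 windows, not printed, held neither motif. A match is a description of the letters and not of a bound site. Likewise, a gene without these exact motifs may still hold E2F sites of other letters or outside the window.

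No member passed the test between the groups. With limma, adjusted over all 12569 genes, 0 of 10 members were called, as were 0% of all genes (limma-voom also called 0), and the smallest adjusted p over all genes was 0.716. The unadjusted limma p was under 0.05 for 4 of 10 members, 2 higher and 2 lower in LT-HSC, against 6.48% of all genes (2.87% higher and 3.60% lower). The lower LT-HSC library exceeded the higher ST-HSC library for 2 members, Rb1 and Rbl2, against 16.1% of all genes. The higher LT-HSC library was under the lower ST-HSC library for 4 members, Rbl1, Cdk6, Ccne1 and Ccne2, against 17.5% of all genes. In the other 4, the D cyclins and Cdk4, the groups overlapped. The values below are therefore measurements in these libraries, not calls.

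Rb1, the founding member of the pocket protein family, had 191.8 and 206 CPM in LT-HSC 1 and 2 and 89.6 and 118 CPM in ST-HSC 1 and 2. Both LT-HSC libraries were high and both ST-HSC libraries low, and the 2 nearest libraries of different groups were 1.63-fold apart. The larger ratio within a group was 1.31, in ST-HSC. LT-HSC averaged 199 ± 10.05 CPM (SD, n = 2) and ST-HSC 104 ± 19.9 CPM (SD, n = 2). The log2 fold change on the log2(CPM + 1) scale was 0.94 ± 0.29 (SE). Its 95% interval ran from 0.21 to 1.68 (limma adjusted p = 0.716). On this scale, positive values mean higher in LT-HSC, and changes of genes with low values are understated.

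Rbl2, the gene of p130, took nearly the same values as Rb1, with 191.1 and 202 CPM in LT-HSC 1 and 2 and 101 and 114 CPM in ST-HSC 1 and 2. The groups did not overlap, with the nearest libraries 1.68-fold apart against at most 1.13-fold within a group. Rbl2 had a log2 fold change of 0.87 ± 0.26 (SE), with a 95% interval from 0.20 to 1.53 (limma adjusted p = 0.716).

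Rbl1, the gene of p107, ran the other way. It stood at 32.9 and 31.3 CPM in LT-HSC 1 and 2 and at 62.2 and 57.0 CPM in ST-HSC 1 and 2. Libraries of the same group differed by at most 1.09-fold, and the nearest libraries of different groups by 1.73-fold. For Rbl1 the log2 fold change was -0.87 ± 0.47 (SE), and its 95% interval, from -2.08 to 0.34, included 0 (limma adjusted p = 0.827). The SE is drawn from the spread of genes of like level as well as from the gene itself.

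**Figure D1:**
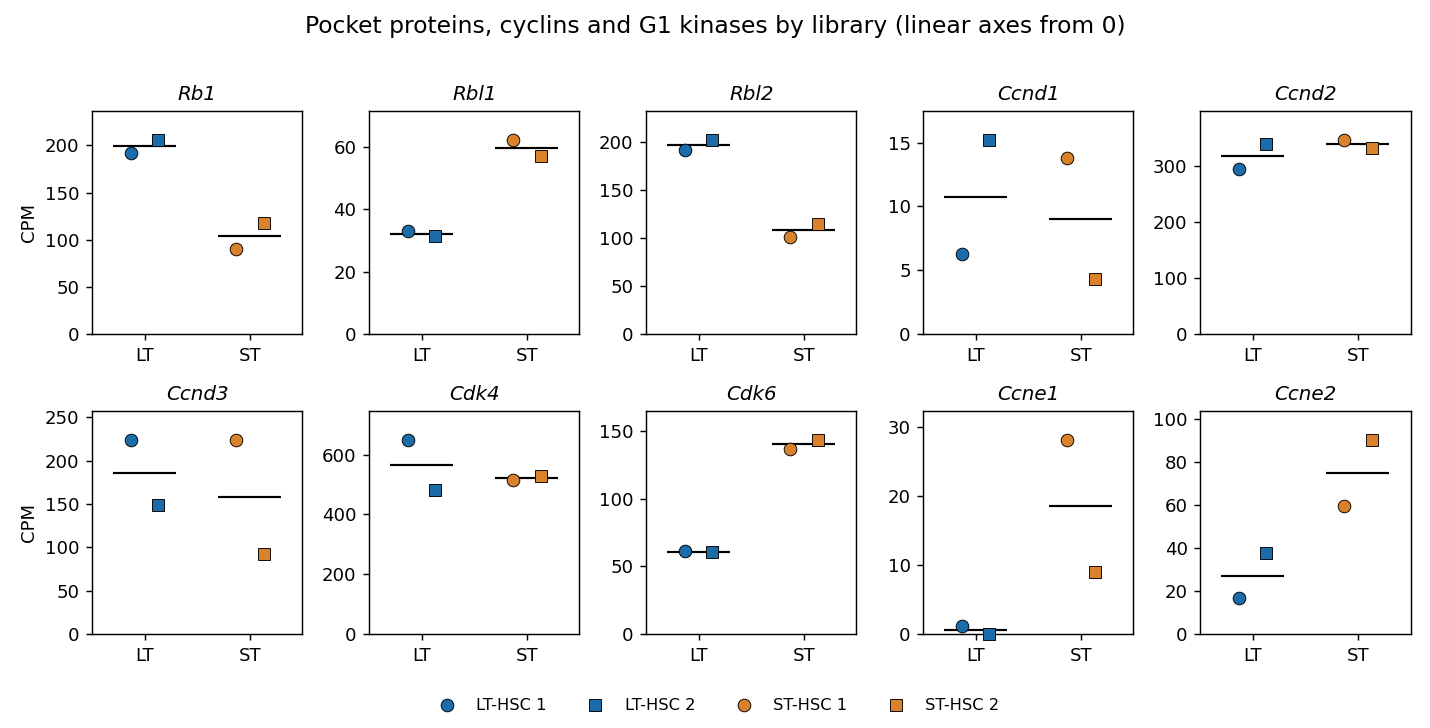
CPM of the 10 genes (vertical axes, linear from 0, one scale per gene) in the LT-HSC and ST-HSC groups (horizontal axes). Points are single libraries and horizontal lines the group means. Rb1 and Rbl2 are high in both LT-HSC libraries, Rbl1, Cdk6, Ccne1 and Ccne2 are low in both, and the groups overlap in the D cyclins and Cdk4.

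The opposite positions of the pocket proteins were also read within libraries, where a ratio of 2 genes does not depend on how a library was scaled. There were 5.83 and 6.58 reads of Rb1 for each read of Rbl1 in LT-HSC 1 and 2, and 1.44 and 2.07 in ST-HSC 1 and 2. The mean log2 ratio differed by 1.84, which is a 3.59-fold difference of the ratio. For Rbl2 to Rbl1 the ratios were 5.81 and 6.44 in LT-HSC and 1.62 and 2 in ST-HSC, a log2 difference of 1.76. Every LT-HSC library was thus above every ST-HSC library in both ratios, and these ratios share Rbl1. This had to follow from the levels above, where Rb1 and Rbl2 were wholly higher and Rbl1 wholly lower in LT-HSC. The ratio of Rb1 to Rbl2 was 1.004 and 1.02 in LT-HSC and 0.887 and 1.03 in ST-HSC, and there the groups overlapped. The 2-sided exact permutation test over libraries gave p = 0.333 for each of the first 2 ratios, which is the smallest that 2 against 2 libraries allow, and p = 1 for Rb1 to Rbl2. Of the 7 ratios formed in all, none could pass at this number of libraries.

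Levels of different genes were compared per kilobase of merged protein-coding exons in GENCODE M21, since longer transcripts give more reads. The annotation behind the deposited values is not given, so these lengths are an approximation. The 3 pocket proteins summed to 86.8 and 91.7 CPM per kb in LT-HSC 1 and 2 and to 52.5 and 60.2 CPM per kb in ST-HSC 1 and 2. Rbl1 made up 7.80% and 7.03% of that sum in LT-HSC 1 and 2 and 24.4% and 19.5% in ST-HSC 1 and 2. Rb1 and Rbl2 together held the rest, with Rbl2 at 44.7% in both LT-HSC libraries and at 39.0% and 38.5% in ST-HSC 1 and 2. The pocket protein sum was higher and the p107 gene's share lower in both LT-HSC libraries.

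**Figure D2:**
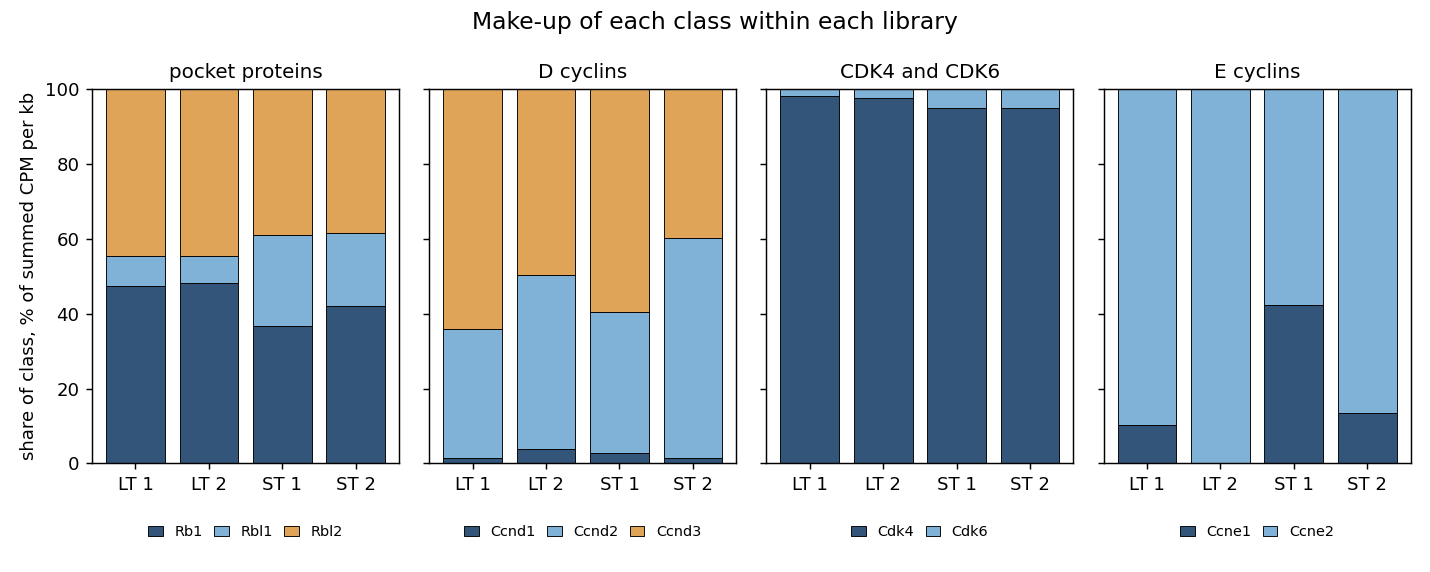
Share of each gene in the summed CPM per kb of its class (vertical axis, percent) in each of the 4 libraries (horizontal axes; LT and ST stand for LT-HSC and ST-HSC). Rbl1 takes 7.03% to 7.80% of the pocket protein sum in LT-HSC and 19.5% to 24.4% in ST-HSC, and Cdk6 takes 1.88% to 2.48% of the kinase sum in LT-HSC and 5.14% to 5.24% in ST-HSC.

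The D cyclins, the regulatory partners through which growth signals reach CDK4 and CDK6, showed no group difference larger than their spread. Ccnd2 had 295 and 340.1 CPM in LT-HSC 1 and 2 and 347 and 332 CPM in ST-HSC 1 and 2. These 4 values lay close together and overlapped. For Ccnd2 the log2 fold change was -0.10 ± 0.19 (SE), with a 95% interval from -0.59 to 0.38 (limma adjusted p = 1.0), so differences of up to about these bounds are not excluded by the fit.

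Ccnd3 had 224 and 149 CPM in LT-HSC 1 and 2 and 224 and 92.4 CPM in ST-HSC 1 and 2. Both libraries numbered 1 were high and both numbered 2 low, whichever group they belonged to; no label says that a number marks a shared batch. The log2 fold change between the groups was 0.34 ± 0.50 (SE), with a 95% interval from -0.96 to 1.64. Without ST-HSC 2 it was -0.29.

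Ccnd1 had few reads, at 6.27 and 15.2 CPM in LT-HSC 1 and 2 and 13.8 and 4.31 CPM in ST-HSC 1 and 2, from 82, 246, 207 and 64 reads. Each group held 1 higher and 1 lower library, with ratios of 2.43 within LT-HSC and 3.19 within ST-HSC. The counting intervals of 95% (exact Poisson) were 4.99 to 7.78 and 13.4 to 17.3 CPM in LT-HSC 1 and 2 and 11.9 to 15.8 and 3.32 to 5.51 CPM in ST-HSC 1 and 2. Those of the same group did not meet, so the spread within groups exceeded the counting error of reads. PCR copies of 1 molecule are counted as separate reads, so these intervals may be too narrow for the sampling of molecules. The log2 fold change of 0.29 ± 1.12 (SE) had a 95% interval from -2.58 to 3.17, and without LT-HSC 2 or ST-HSC 2 it was -0.28 or -0.44. Per kilobase, Ccnd1 held 1.33% to 3.76% of the D cyclin sum over the 4 libraries, and Ccnd2 and Ccnd3 held the rest.

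The D cyclin sum was 126 and 108 CPM per kb in LT-HSC 1 and 2 and 136 and 83.8 CPM per kb in ST-HSC 1 and 2. Here too the groups overlapped, and in each group the library numbered 1 was higher. The ratio of Ccnd3 to Ccnd2 was 0.758 and 0.438 in LT-HSC and 0.646 and 0.278 in ST-HSC, with an exact permutation p = 0.667. The ratio of Ccnd1 to Ccnd2 was 0.0213 and 0.0448 in LT-HSC and 0.0397 and 0.0130 in ST-HSC, with the same exact permutation p.

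The 2 kinases that D cyclins activate differed from each other. Cdk6 had 61.2 and 60.4 CPM in LT-HSC 1 and 2 and 137 and 144 CPM in ST-HSC 1 and 2. Both LT-HSC libraries were low, the libraries within a group were at most 1.05-fold apart, and the nearest libraries of different groups were 2.24-fold apart. LT-HSC averaged 60.8 ± 0.540 CPM (SD, n = 2) and ST-HSC 140.4 ± 4.55 CPM (SD, n = 2), 2.31-fold more. Cdk6 thus had a log2 fold change of -1.19 ± 0.32 (SE), with a 95% interval from -2.0 to -0.39 (limma adjusted p = 0.716).

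Cdk4 had 649.8 and 483 CPM in LT-HSC 1 and 2 and 515 and 528 CPM in ST-HSC 1 and 2. LT-HSC 1 was the highest library and LT-HSC 2 the lowest, so the LT-HSC values enclosed both ST-HSC values. Cdk4 had a log2 fold change of 0.10 ± 0.20 (SE), with a 95% interval from -0.40 to 0.61 (limma adjusted p = 1.0).

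Within libraries, the ratio of Cdk6 to Cdk4 reads was 0.0941 and 0.125 in LT-HSC 1 and 2 and 0.266 and 0.272 in ST-HSC 1 and 2. Both LT-HSC libraries lay below both ST-HSC libraries, and the mean log2 ratio was lower by 1.31 in LT-HSC, 2.48-fold on the linear scale (2-sided exact permutation p = 0.333, the smallest possible). Per kilobase, Cdk6 was 1.88% and 2.48% of the sum of both kinases in LT-HSC 1 and 2 and 5.14% and 5.24% in ST-HSC 1 and 2. The merged exons of Cdk6 span 11819 bases against 2405 for Cdk4, and this share depends on those lengths. With the longest coding transcript it was 1.65% and 2.18% in LT-HSC and 4.53% and 4.62% in ST-HSC. The fold difference of the read ratio does not depend on length. The sum of both kinases per kilobase, mostly Cdk4, was 275 and 206 CPM per kb in LT-HSC and 226 and 232 CPM per kb in ST-HSC, and the groups overlapped.

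**Figure D3:**
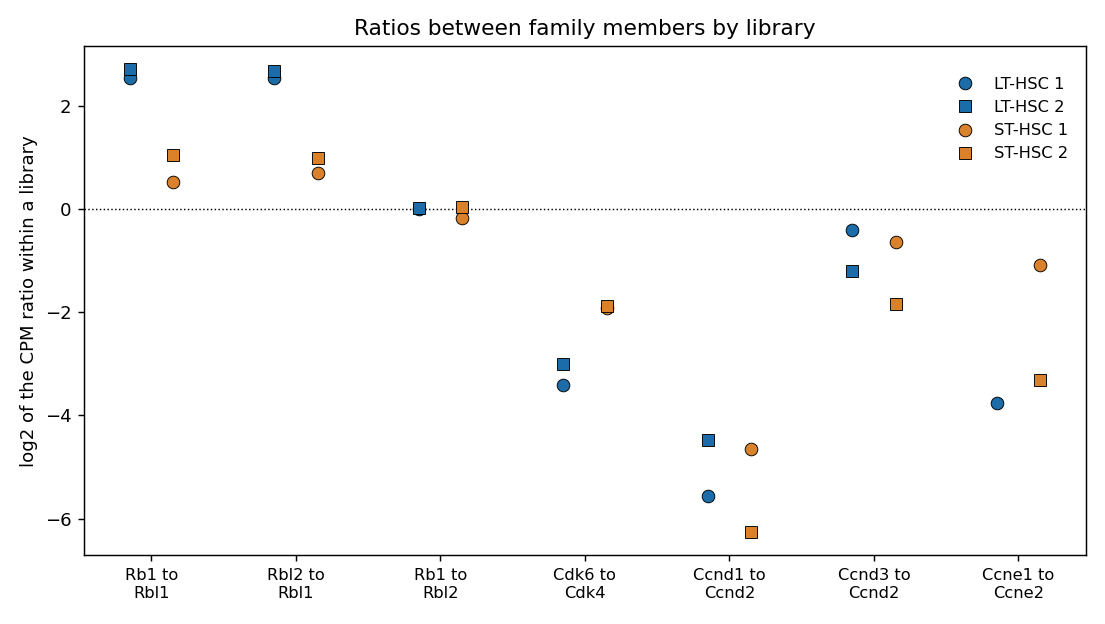
Log2 of the ratio of CPM between 2 members of a class within a library (vertical axis) for 7 pairs (horizontal axis). Each point is a library, and Ccne1 to Ccne2 has no point for LT-HSC 2, where Ccne1 had no read. LT-HSC lies above ST-HSC for Rb1 and Rbl2 over Rbl1 and below it for Cdk6 over Cdk4, and the groups overlap for the pairs of D cyclins and for Rb1 to Rbl2.

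The E cyclins, which act with CDK2 at the G1 to S boundary and are known E2F targets, were low in LT-HSC. Ccne1 had 16 reads in LT-HSC 1 and 0 in LT-HSC 2, against 424 and 134 reads in ST-HSC 1 and 2, or 1.22, 0, 28.2 and 9.03 CPM. By the counting of reads alone, 0 in LT-HSC 2 allows up to 0.186 CPM by a floor of 3 reads. The 95% exact Poisson interval allows up to 0.228 CPM. Neither bound covers transcripts lost before sequencing, which was not tested, so neither limits the level in the cells. Both LT-HSC libraries were below both ST-HSC libraries, the higher LT-HSC library by 7.38-fold from the lower ST-HSC library, while the ST-HSC libraries were 3.12-fold apart from each other. The log2 fold change on the log2(CPM + 1) scale was -3.52 ± 1.16 (SE), with a 95% interval from -6.50 to -0.54 (limma adjusted p = 0.746). Since 1 library was unread, this size moved with the value added to CPM, from -4.74 with 0.25 to -1.95 with 5, and was -6.42 by limma-voom on the recovered reads.

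Ccne2 had 16.6 and 37.5 CPM in LT-HSC 1 and 2 and 59.4 and 90.3 CPM in ST-HSC 1 and 2. The groups did not overlap, but the nearest libraries of different groups, 1.58-fold apart, were closer than the LT-HSC libraries were to each other, 2.26-fold. For Ccne2 the log2 fold change was -1.51 ± 0.62 (SE), with a 95% interval from -3.12 to 0.09 (limma adjusted p = 0.767). Without LT-HSC 1 it was -0.95 and without LT-HSC 2 it was -2.08.

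Per kilobase, both E cyclins summed to 5.77 and 11.7 CPM per kb in LT-HSC 1 and 2 and to 32.1 and 32.5 CPM per kb in ST-HSC 1 and 2. Ccne2 held most of that sum in every library, from 57.8% in ST-HSC 1 to 100% in LT-HSC 2. The sum was close between the ST-HSC libraries although its make-up was not.

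**Figure D4:**
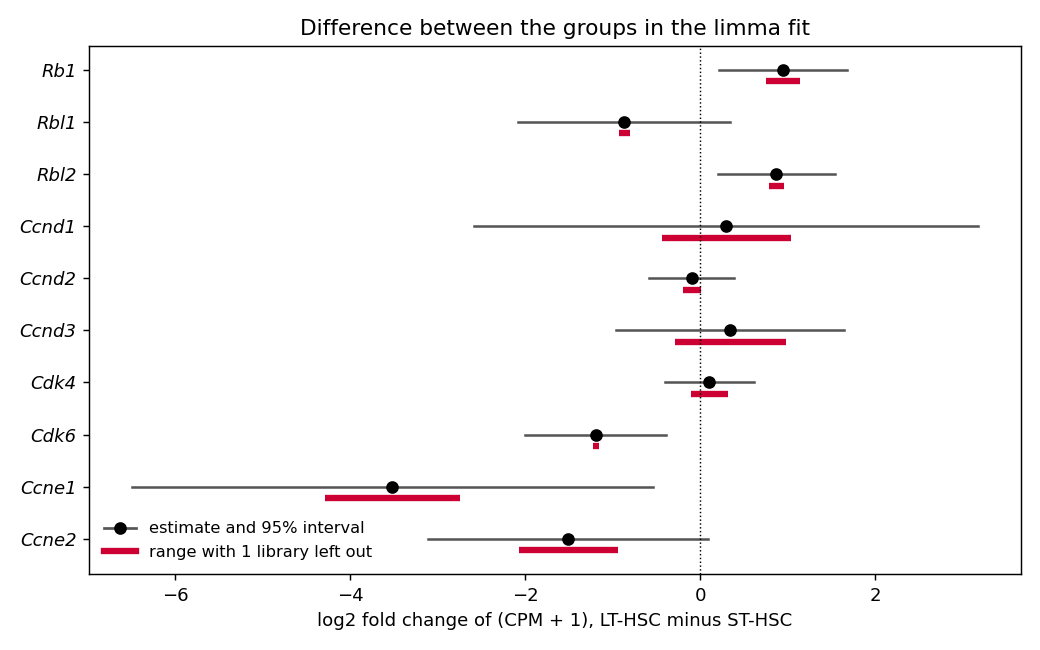
Log2 fold change of CPM + 1, LT-HSC minus ST-HSC (horizontal axis), for the 10 genes (vertical axis). Points are the limma estimates, grey lines their 95% intervals, and red bars the range of the estimate with 1 library left out. For Cdk6 this range runs from -1.23 to -1.16, and for Ccnd1 from -0.44 to 1.03.

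Ordered by mean level per kilobase, LT-HSC had Cdk4 first at 236 CPM per kb, then Ccnd3 at 67.2, Ccnd2 at 47.1, Rb1 at 42.7, Rbl2 at 39.9, Ccne2 at 8.45, Rbl1 at 6.60, Cdk6 at 5.14, Ccnd1 at 2.87 and Ccne1 at 0.294. The libraries of Ccnd2 and Rb1 overlapped, as did those of Ccne2 and Rbl1, and the other neighbours did not. In ST-HSC the order was Cdk4 at 217, Ccnd3 at 57.1, Ccnd2 at 50.4, Ccne2 at 23.4, Rb1 at 22.3, Rbl2 at 21.8, Rbl1 at 12.3, Cdk6 at 11.9, Ccne1 at 8.95 and Ccnd1 at 2.42. There, Ccnd3 overlapped Ccnd2, Ccne2 overlapped Rb1, Rb1 overlapped Rbl2, Rbl1 overlapped Cdk6 and Cdk6 overlapped Ccne1. Thus Ccne2 stood below the 3 genes Ccnd2, Rb1 and Rbl2 in LT-HSC and beside Rb1 and Rbl2 in ST-HSC. With the length of the longest coding transcript, chosen as an alternative after the values were seen, both orders were the same, and Ccnd2 and Rb1 no longer overlapped in LT-HSC.

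The genes with the pattern nearest to a member over the 4 libraries were read for the member with the highest mean CPM in each class, by the root mean square difference of log2(CPM + 1) after centring. Of 9233 other named genes with a mean of at least 10 CPM, Nab1 and Chchd8 were nearest to Rbl2 (0.0329 and 0.0406 log2 units), Tmem70 and Tra2b to Ccnd2 (0.0139 and 0.0189), and Enox1 and Pdrg1 to Cdk4 (0.0150 and 0.0175). For Ccne2 they were Mif4gd and Armcx2, farther off at 0.0986 and 0.111. The number of genes within 0.1 log2 units was 470 for Cdk4, 153 for Ccnd2, 21 for Rbl2 and 1 for Ccne2.

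Other genes of the pathway were read in 9 lists of 78 genes, of which 69 were tested. Of these 69, limma called 0 after adjustment, and 1 was higher and 7 lower at an unadjusted p under 0.05, beside 2.87% and 3.60% of all genes. LT-HSC was wholly above ST-HSC for 6 and wholly below it for 21, beside 16.1% and 17.5% of all genes. The median log2 fold change was -0.28, against -0.01 for all tested genes. Some genes are in 2 lists, and 6 of the 78 are not analysed here.

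CDK inhibitors, which block these kinases, had 5 tested members with a median of -0.21, which leaving out LT-HSC 1 turned to 0.053 and leaving out ST-HSC 2 moved to -0.51. Cdkn1c, the gene of p57, had 47.0 and 34.7 CPM in LT-HSC 1 and 2 and 13.4 and 12.0 CPM in ST-HSC 1 and 2. It was the only 1 of the 5 whose groups did not overlap, beside 16.1% of all genes above and 17.5% below. Cdkn2c, which encodes p18, was at 0.535 and 12.2 CPM in LT-HSC against 12.2 and 18.5 CPM in ST-HSC, with 1 low library. Cdkn2a and Cdkn2b had no read in any library.

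E2F and DP factors, the partners of the pocket proteins, had 10 tested members with a median of -0.23. In both LT-HSC libraries 0 were above and 3 below, beside 16.1% and 17.5% of all genes. With ST-HSC 1 left out that median was 0.28, and with LT-HSC 1 left out it was -0.47. E2f8, a repressor E2F that is itself an E2F target, had 0.0765 and 1.36 CPM in LT-HSC 1 and 2 and 47.7 and 14.8 CPM in ST-HSC 1 and 2 (limma adjusted p = 0.716). E2f1, an activator, was at 47.1 and 19.2 CPM in LT-HSC against 115 and 62.1 CPM in ST-HSC. In both genes every LT-HSC library was the lower. The MuvB and DREAM genes, whose products join p107 and p130 to repress cell cycle genes, had 6 members with a median of -0.30, which came to -1.13 when ST-HSC 1 was left out and to 0.0068 when LT-HSC 1 was left out. Among them Mybl2, which replaces the pocket protein in this complex in cycling cells, was at 0.459 and 0.248 CPM in LT-HSC against 33.7 and 21.1 CPM in ST-HSC (log2 fold change -4.36 ± 1.03 SE). Lin9, a core subunit, was at 0.841 and 30.7 CPM in LT-HSC against 8.24 and 55.0 CPM in ST-HSC, low in both libraries numbered 1.

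Classical E2F target genes, mostly replication genes, had the lowest median of the lists with at least 5 tested genes, -1.09 over 18 genes. Both LT-HSC libraries were above both ST-HSC libraries for 0 and below them for 11, beside 16.1% and 17.5% of all genes. At an unadjusted p under 0.05, 5 were lower and 0 higher, beside 3.60% and 2.87% of all genes. Rpa2, part of the complex that coats single-stranded DNA, had 55.4 and 55.1 CPM in LT-HSC 1 and 2 and 183 and 212 CPM in ST-HSC 1 and 2. The MCM genes of this list, which encode subunits of the replicative helicase, were named after their values were seen. Mcm2, Mcm5 and Mcm6 had log2 fold changes of 0.02 ± 0.38 (SE), 0.08 ± 0.26 (SE) and -0.28 ± 0.26 (SE) with overlapping groups. Mcm3, Mcm4 and Mcm7 were below in both LT-HSC libraries, at -0.61 ± 0.39 (SE), -0.46 ± 0.26 (SE) and -1.76 ± 0.47 (SE).

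Of the CDK2 and cyclin A genes, 2 were tested, both with overlapping groups. Cdk2, the kinase partner of the E cyclins, was at 54.9 and 69.3 CPM in LT-HSC against 82.6 and 62.0 CPM in ST-HSC, which overlapped. Ccna2, the cyclin A2 gene, was at 65.8 and 0.248 CPM in LT-HSC against 32.0 and 44.4 CPM in ST-HSC, and LT-HSC 2 alone was low. Of the CDK activating kinase and CDC25 genes, 6 were tested, with a median of -0.27 (-0.48 without ST-HSC 1 and -0.099 without ST-HSC 2). In both LT-HSC libraries 1 was above and 4 below, beside 16.1% and 17.5% of all genes. Cdc25b, a phosphatase that activates CDKs, was at 23.6 and 52.1 CPM in LT-HSC against 1.73 and 18.6 CPM in ST-HSC. Mnat1, a subunit of the activating kinase, was at 43.7 and 45.1 CPM against 81.7 and 62.1 CPM.

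Genes of cyclin and p27 turnover had a median of -0.42 over 6 tested members (-0.66 without ST-HSC 2). Of the 6, 0 were above and 2 below, beside 16.1% and 17.5% of all genes. Ambra1, which promotes the degradation of D cyclins, was at 19.6 and 11.9 CPM in LT-HSC against 132 and 37.5 CPM in ST-HSC (limma adjusted p = 0.767). Cks1b, a cofactor in p27 degradation, was at 115 and 71.8 CPM against 138 and 132 CPM. All 7 tested corepressor genes of the pocket proteins overlapped between the groups (median -0.12, but -0.37 without LT-HSC 1, -0.31 without ST-HSC 2 and -0.055 without LT-HSC 2), with Hdac1, a histone deacetylase gene, at -0.26 ± 0.25 (SE) and Smarca2, a chromatin remodeller gene, at -0.31 ± 0.26 (SE). Mitogen inputs to the D cyclins had a median of 0.20 over 11 members, but 0.094 without LT-HSC 1 and 0.13 by limma-voom. Of the 11, 4 were above and 0 below, beside 16.1% and 17.5% of all genes. Of these, Mycn, a Myc family transcription factor gene, was at 214 and 135 CPM in LT-HSC against 70.7 and 72.7 CPM in ST-HSC (limma adjusted p = 0.716). Foxo1, a transcription factor gene restrained by growth signals, was at 61.9 and 51.9 CPM in LT-HSC against 23.9 and 19.8 CPM in ST-HSC.

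**Figure D5:**
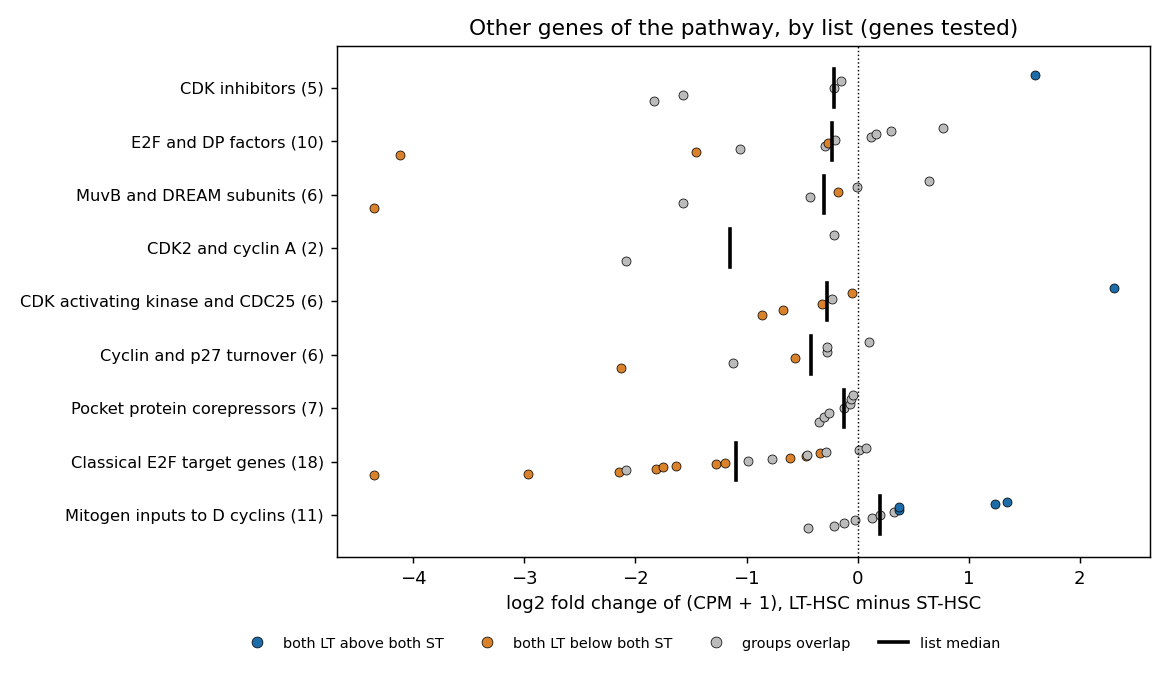
Log2 fold change of CPM + 1, LT-HSC minus ST-HSC (horizontal axis), of each tested gene in 9 lists of the pathway (vertical axis, with the number of genes tested). Points are genes, coloured by whether the libraries of the groups overlap, and black bars are list medians. The E2F target genes have a median of -1.09, and the corepressors one of -0.12.

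The labels and the libraries were checked as follows. Recovered reads ranged from 13062848 to 16142666 per library, and genes with a read from 13275 to 14548, the most in LT-HSC 1. Log2 levels of LT-HSC 1 correlated with those of LT-HSC 2 at a Pearson r of 0.736 across genes. For ST-HSC 1 with ST-HSC 2, r was 0.797. All 8 HSC marker genes were read in every library, with a summed level of 3252 to 3369 CPM in LT-HSC and 2272 to 2369 CPM in ST-HSC. Of the sort markers, Cd9 was at 134 and 124 CPM in LT-HSC against 100.3 and 113 CPM in ST-HSC, Slamf1 (CD150) at 112 and 138 CPM against 65.7 and 108 CPM, and Cd34 at 134 and 201 CPM against 324 and 430 CPM. Cd48, whose protein both gates exclude, was at 0.153 and 0.124 CPM in LT-HSC against 16.4 and 38.8 CPM in ST-HSC.

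Markers of cycling cells (Mki67, Top2a, Ccnb1, Bub1 and Aurkb) moved with Rbl1, Cdk6 and the E cyclins. All 5 were below in both LT-HSC libraries, beside 17.5% of all genes. These markers had a summed level of 187 to 247 CPM in LT-HSC and 741 to 1164 CPM in ST-HSC. Their part in the differences of the members was not tested. In such bulk libraries, fewer cells of a type and less RNA per cell cannot be told apart. Megakaryocyte markers summed to 79.4 to 95.7 CPM in LT-HSC and 193 to 256 CPM in ST-HSC. Of 4 tested genes, 3 were below in both LT-HSC libraries, beside 17.5% of all genes. Most of the gap between these sums was Itga2b (CD41), at 2.45 and 5.01 CPM in LT-HSC against 152 and 105 CPM in ST-HSC. Gp9 was at 48.6 and 49.9 against 53.7 and 52.1 CPM. T and NK cell markers summed to 4.58 to 17.8 against 37.5 to 57.9 CPM, with Cd3e and Ncr1 at 0 in all libraries. Most of this was Lck, at 16.4 and 3.71 against 51.3 and 35.6 CPM, and Cd3g went the other way, at 1.45 and 0.867 CPM in LT-HSC and 0 in ST-HSC. Erythroid markers (135 to 171 against 177 to 188 CPM) also had the lower sums in LT-HSC. Most of each sum was Hbb-b1, at 119 and 108 against 130 and 118 CPM, which overlapped. Of the 4 genes, 2 were below in both LT-HSC libraries, beside 17.5% of all genes, and nearly unread there. These were Klf1, at 0.306 and 0.124 against 27.5 and 9.44 CPM, and Aqp1, at 1.22 and 0 against 23.7 and 28.0 CPM. Epor was above in both, at 50.8 and 26.6 against 7.38 and 21.1 CPM. By contrast, granulocyte-monocyte (226 to 342 against 254 to 279 CPM, Ctsg at 0), B cell (130 to 209 against 109 to 147 CPM, Pax5 at 0) and endothelial and stromal markers (96.1 to 178 against 72.3 to 142 CPM) had overlapping sums. The part of these cells was not tested either.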

How the data were processed

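RNA from 2000 sorted cells per library was made into cDNA with the SMARTer kit and sequenced, per the labels' protocols. TopHat and the mm9 build are named in the submitters' processing notes; no read counter, gene annotation or filter is given in the sources used here. The authors deposited log2 values. Their low steps fit a library-scaled count (CPM) to which 1 read was added. An alternative in which only unread genes were set to 1 read fits the same steps and would raise every other count by 1. Scaled back, 100% of the values up to 100 reads lay within 0.1 of a whole number, on a scale taken from those steps. A floor of 3 reads equals 0.186 to 0.229 CPM.

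CPM were computed by removing the added read, with the authors' library totals as the scaling. The test used log2(CPM + 1) of genes that reached 1 CPM in 2 or more libraries, and ran in limma 3.58.1 (R 4.3.3, statmod 1.5.0) with a trended prior and robust shrinkage, with Benjamini-Hochberg adjustment over all tested genes and a threshold of 0.05. The fit was tested on simulated data. Ratios were compared with the 2-sided exact permutation test in scipy 1.17.1. Named genes are all members, the sort markers, the 2 genes of each pathway list with the smallest p, and the nearest genes by pattern. Outside this rule, the cycling markers, other single markers of cell types and the MCM genes were named after their values were seen. The members, lists and tests were chosen with earlier results of these data known. One marker gene is not reported here.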

Additional observations from a re-analysis of the deposited data

How the results depend on the processing

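No gene and no member passed the threshold in any alternative, which covered values of 0.25 and 5 added to CPM, other filters, median-of-ratios scaling, the replicate block, limma-voom, no robust shrinkage, thinning, an adjusted p under 0.1 and each library left out. Rb1, Rbl2, Rbl1, Cdk6, Ccne1 and Ccne2 kept their direction in all 13 alternatives each. Most of these could not turn it. The groups of these genes did not overlap, so neither a library left out nor another value added to CPM can change the sign. The filters, the block and the robust setting leave the estimate itself unchanged. With 1 library left out, the log2 fold change ranged from 0.75 to 1.14 for Rb1, 0.78 to 0.95 for Rbl2, -0.93 to -0.81 for Rbl1, -1.23 to -1.16 for Cdk6, -4.29 to -2.75 for Ccne1 and -2.08 to -0.95 for Ccne2. The direction turned with 1 library left out for Ccnd1 (-0.44 to 1.03, below 0 also without LT-HSC 2 at -0.28), Ccnd2 (-0.20 to 0.0019), Ccnd3 (-0.29 to 0.97) and Cdk4 (-0.11 to 0.32). It also turned for the log2 ratios Rb1 to Rbl2 (-0.029 to 0.19), Ccnd1 to Ccnd2 (-0.36 to 1.25), Ccnd3 to Ccnd2 (-0.16 to 1.05) and Ccne1 to Ccne2 (0.065 with 5 added to CPM); the cause was not tested. At an unadjusted p under 0.05 there were 4 members and 814 genes with all libraries and 3 and 586 with limma-voom. Leaving out LT-HSC 1 gave 2 and 857, LT-HSC 2 gave 2 and 1099, ST-HSC 1 gave 0 and 517, and ST-HSC 2 gave 1 and 394. A lone library in a group is assumed to vary like the others.

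The list medians that changed sign were those of CDK inhibitors (up to 0.053), E2F and DP factors (0.28 without ST-HSC 1), MuvB and DREAM subunits (up to 0.0068) and CDK2 with cyclin A (up to 0.21), each with 1 library left out. Of the others, the E2F target median ranged from -1.18 to -0.76. The libraries of the groups share the numbers 1 and 2, with no label that says they are paired. Deviations of same-numbered libraries had a correlation of 0.0518 across genes. With the replicate number as a block, 0 genes and 0 members passed, and 876 genes and 5 members had an unadjusted p under 0.05, the fifth being Ccne2. Ccne1 and Ccnd1 had the fewest reads of the members, yet the ST-HSC libraries differed by more than the counting error of reads in both. The sampling of molecules is not covered by that error.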
